A study of Caenorhabditis elegans with 2 samples.

Results

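MicroRNA genes were examined for binding of EFL-1, an E2F-family transcription factor of Caenorhabditis elegans, in first-stage (L1) larvae. The members were all 261 nuclear genes annotated as microRNAs in the WBcel235 assembly, which is the ce11 build of the peak lists. No 2 of them overlapped on the same strand, so each was 1 locus. Each locus was given a window that ran from 1000 bp upstream of the 5' end of the annotated precursor to 100 bp downstream of its 3' end. A locus is called bound here when the summit of a reproducible peak, the position of highest signal that the authors recorded, lay in its window. Of the 3824 reproducible peaks, 30 (0.785%) had their summit in a microRNA window, and these windows covered 0.276% of the nuclear genome. The 30 summits bound 36 of the 261 loci.

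The data came from chromatin immunoprecipitation followed by sequencing of whole, mixed-sex L1 larvae of strain YL424. This strain carries the mutation unc-119(ed3)III and the inserted transgene vrIs68, in which the efl-1 promoter and 3'UTR drive EFL-1 fused to GFP and FLAG, with unc-119 (+) as its marker. The labels place the target in a single group of 2 libraries, biological replicates 1 and 2, with a stated size range of 150 to 350 bp, and there was no other genotype, stage or treatment. The values therefore describe an integrated transgene in a mixture of all larval cell types, no test between conditions was possible, and differences between classes of loci are given as descriptions. In the labels the antibody entry reads efl-1 and the description reads eGFP-efl-1, and no antibody is named. Sequencing depth was unknown, since peak lists hold no reads, and intervals cover counting error over loci or summits only. Whole larvae were used, so binding in few cells and weak binding in many cannot be told apart. The 2 libraries differed in how many entries they gave: at a −log10 q above 2, replicate 1 had 1196 entries and replicate 2 had 12800. Peaks with a low score rested mainly on replicate 2. The main counts and shares of microRNA loci and the summit densities below are also given from replicate 1 alone. That means from as many of its strongest entries as the reproducible list holds.

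EFL-1 pairs with a DP protein to bind DNA and, with an Rb-like protein and the MuvB proteins, forms the DREAM complex, which is best known for holding cell-cycle genes silent in cells that do not divide. A microRNA gene is copied into a long primary transcript, from which a hairpin precursor and then a short mature RNA are cut, so the start of transcription usually lies upstream of the annotated precursor. The mature RNA recognises messenger RNAs mainly through its seed, bases 2 to 8 from the 5' end, and microRNAs with the same seed are grouped as a family. In C. elegans the families of lin-4 and let-7 time larval development, and the mir-35 and mir-51 families are each needed for embryos to develop.

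The family bound at every member was that of mir-51. Its 6 mature sequences are shown because they share a seed, ACCCGUA, in capitals, and no mature RNA of another locus carried it. They were read from the RefSeq copy of WBcel235, whose microRNA entries matched 261 of the 261 loci by gene identifier for the precursor and 260 for the mature RNA. The seed stands in the 5' arm of the hairpin in mir-51, mir-52 and mir-53, and in the 3' arm in mir-54, mir-55 and mir-56.
mir-51: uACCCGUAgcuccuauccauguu
mir-52: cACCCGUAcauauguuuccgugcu
mir-53: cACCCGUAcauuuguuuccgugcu
mir-54: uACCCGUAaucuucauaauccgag
mir-55: uACCCGUAuaaguuucugcugag
mir-56: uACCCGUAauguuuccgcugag

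A further group with a shared seed, AUGACAC, was bound at 4 of its 5 loci, which lie side by side in an intron of gcn-1. Of these, 3 are shown next, since 1 peak stands upstream of all 4, and the fifth locus, mir-63, lies on the X chromosome and had no reproducible summit.
mir-229: aAUGACACugguuaucuuuuccaucg
mir-64: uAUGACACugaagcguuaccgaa
mir-66: cAUGACACugauuagggauguga

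The last set holds loci with no protein-coding start in the window: mir-228, whose peak was the strongest of that kind, the related pair mir-58a and mir-80, and the pair mir-239a and mir-239b. The seeds of mir-58a and mir-80 differ in their last base.
mir-228: aAUGGCACugcaugaauucacgg
mir-58a: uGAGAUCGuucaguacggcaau
mir-80: uGAGAUCAuuaguugaaagccga
mir-239a: uUUGUACUacacauagguacugg
mir-239b: uUUGUACUacacaaaaguacug

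MicroRNA loci as a class were bound no more often than protein-coding genes. The share was 36 of 261 (13.8%, 95% Wilson interval 10.1% to 18.5%), and 36 loci were also bound when only the stretch from 1000 bp upstream to 100 bp downstream of the precursor's 5' end was used. With that stretch at the 5' end of each gene, 3312 of 19973 protein-coding genes were bound (16.6%, Wilson interval 16.1% to 17.1%), a share inside the interval of the microRNA loci. With replicate 1 alone, 5.36% of microRNA loci (14 of 261, Wilson interval 3.22% to 8.8%) and 13.8% of protein-coding genes were bound, so the microRNA share was then the lower one by more than its interval. With replicate 2 alone the shares were 15.3% of microRNA loci and 16.7% of protein-coding genes. With only those reproducible peaks that an entry with a −log10 q above 2 overlapped in each replicate list, they were 3.45% of microRNA loci (9 of 261, Wilson interval 1.82% to 6.42%) and 7.79% of protein-coding genes. Protein-coding genes with no other gene's start in the stretch were bound in 9.88% of cases (1532 of 15502). Among other genes that make no protein, tRNA genes were bound in 23% and snoRNA genes in 35% of cases. The shares were 11.6% for snRNA genes, 9.79% for lincRNA genes, 5.98% for other ncRNA genes and 1.08% for piRNA genes, and 2.11% for pseudogenes. These shares, and that of protein-coding genes with no other gene's start, are from the reproducible list only.

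Chromosome III had the highest share, chromosome I the next and the X chromosome the lowest, both for microRNA loci and for protein-coding genes. Chromosome III held 11 bound of 27 microRNA loci (40.7%, Wilson interval 24.5% to 59.3%), against 28% of its protein-coding genes. Chromosome I had 6 of 33 microRNA loci bound (18.2%), against 26.3% of its protein-coding genes, and chromosome II 4 of 49 (8.16%), against 16.7%. Chromosome IV had 6 of 50 (12%), against 15.9%, and chromosome V 4 of 28 (14.3%), against 10.5%. The X chromosome carried 74 of the 261 loci and 5 of them were bound (6.76%, Wilson interval 2.92% to 14.9%), against 7.18% of its protein-coding genes. On the autosomes 16.6% of microRNA loci and 18.1% of protein-coding genes were bound. Of the 11 bound loci on chromosome III, 4 share 1 peak. With replicate 1 alone, 4 of its 27 loci were bound (14.8%, Wilson interval 5.92% to 32.5%), against 23.5% of its protein-coding genes, so its microRNA share was then below that of its protein-coding genes. Chromosome I then had 9.09% of its microRNA loci bound, against 21% of its protein-coding genes, chromosome II 4.08%, against 14.4%, chromosome IV 6%, against 13.3%, and chromosome V 7.14%, against 8.37%. The X chromosome had 0 of 74 loci bound, against 6.55%. On the autosomes 7.49% of microRNA loci and 14.9% of protein-coding genes were bound with replicate 1 alone.

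**Figure D1:**
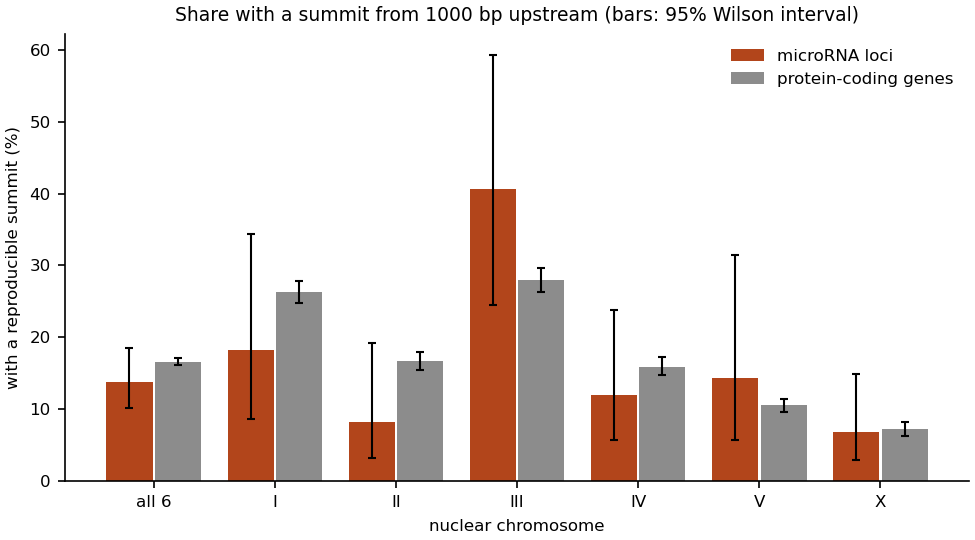
Percentage of microRNA loci and of protein-coding genes with a reproducible EFL-1::GFP summit, over all 6 nuclear chromosomes and on each, with 95% Wilson intervals as error bars. The overall shares are 13.8% and 16.6%, chromosome III is highest for both classes, and the microRNA intervals on single chromosomes are wide.

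Worm genes lie close together, so a summit near a microRNA can be in the promoter of a neighbour. The windows of 63 microRNA loci held the annotated start of a protein-coding transcript, and 14 of these were bound (22.2%, Wilson interval 13.7% to 33.9%). The other 198 windows held no such start, and 22 of these were bound (11.1%, Wilson interval 7.45% to 16.2%). The intervals of these shares overlap, and the peaks of both kinds also differed in strength. The score, the authors' own value for each peak with no stated scale, had a median of 65.7 over the 16 peaks of windows without a start (range 38.6 to 298). It had a median of 225 over the 13 peaks of windows with one (range 37.4 to 1604). Over all 3824 reproducible peaks the median was 101, and over the 1503 whose summit was outside every protein-coding promoter, taken as 500 bp upstream to 100 bp downstream of a start, it was 68.4.

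**Figure D2:**
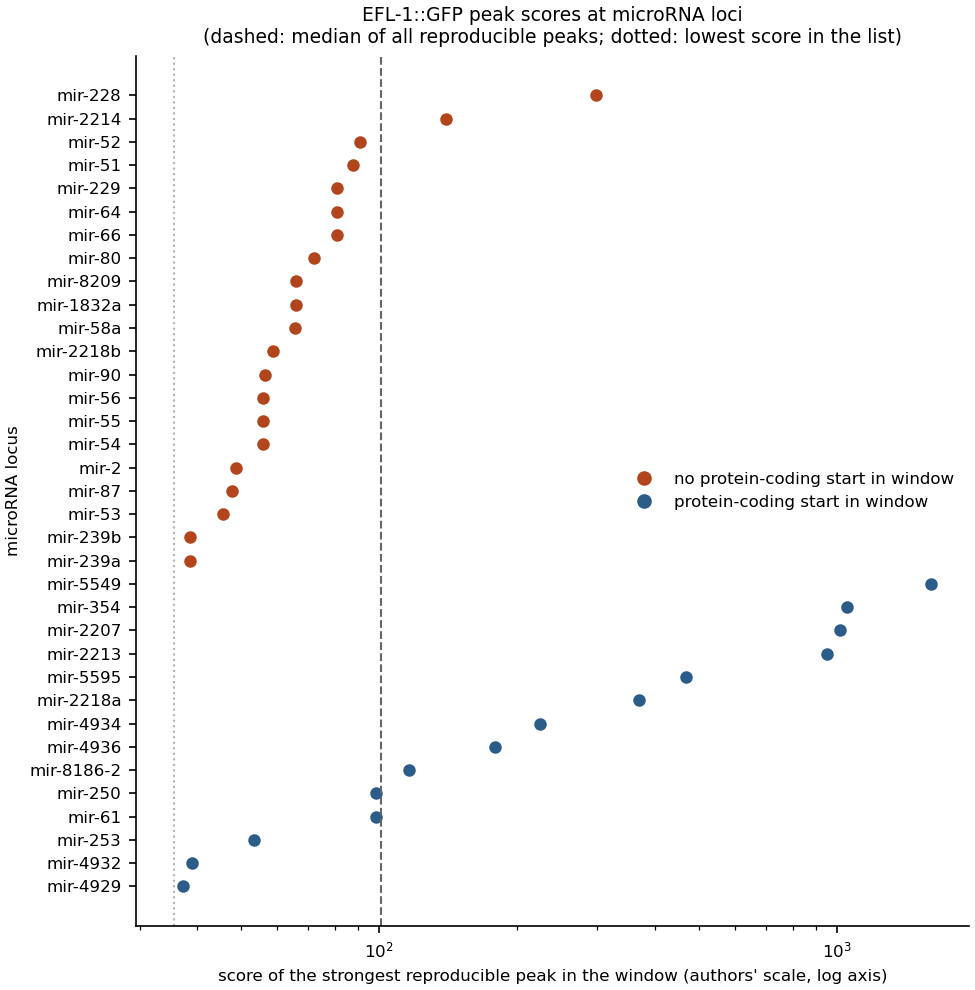
Score of the strongest reproducible peak in the window of 35 of the 36 bound microRNA loci, on a log axis, with loci whose window holds no protein-coding start above those whose window holds one. All loci of the upper group except mir-228 and mir-2214 fall below the median of all peaks (101, dashed), and the 4 highest scores, 953 to 1604, belong to the lower group.

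Support from the replicates followed the same split. A peak counts here as supported in each replicate when an entry with a −log10 q above 2 overlapped it by at least 1 bp in both lists, which held for 31.4% of all reproducible peaks. It held for 2 of the 16 peaks of windows without a start (12.5%), against 12.2% of all peaks outside promoters, and for 7 of the 13 of windows with a start (53.8%). Entries of replicate 2 overlapped the strongest peak of all 36 loci. Those of replicate 1 overlapped that of 8 of the 22 loci without a start and of 11 of the 14 with one, at any q. With the strongest 3824 entries of replicate 1 alone in place of the reproducible list, 14 loci were bound and 3 had no start in the window, namely mir-228, mir-2214 and mir-51. The shares were then 11 of 63 windows with a start (17.5%) and 3 of 198 without one (1.52%, Wilson interval 0.517% to 4.36%), the second below its interval in the reproducible list. With those of replicate 2 alone, 40 loci were bound and 26 had no start.

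**Figure D3:**
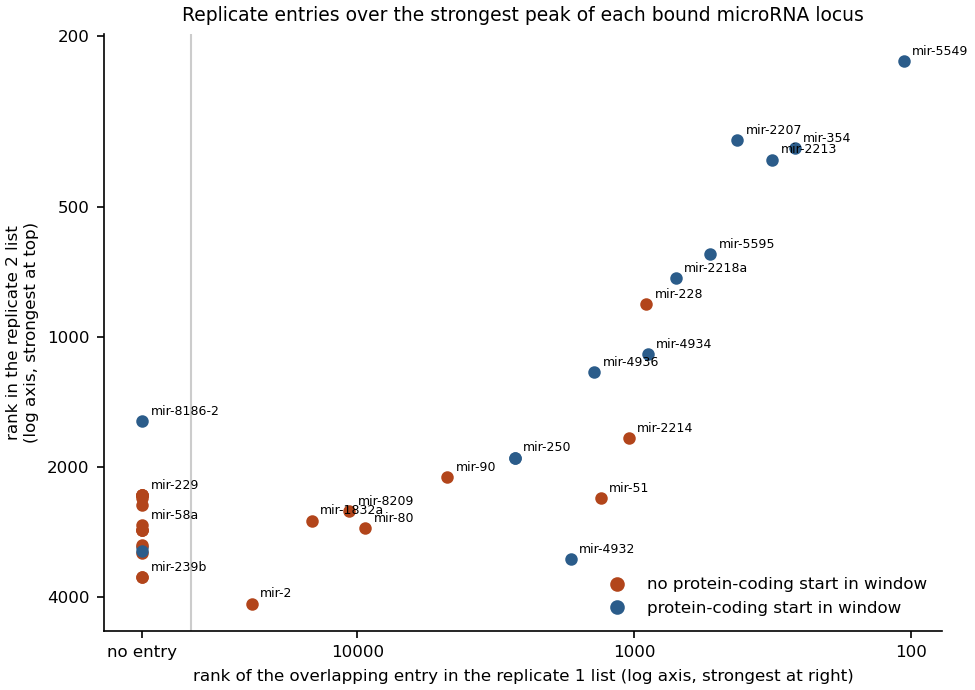
Rank of the entry that overlaps the strongest peak of each bound locus in the replicate 1 list (horizontal) and the replicate 2 list (vertical), on log axes with the strongest entries at the upper right. Loci at far left had no overlapping entry in replicate 1, and mir-5549 ranks highest in both lists, at 106 and 229.

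Taken by strength, the leading locus without a gene start in its window was mir-228, a microRNA known from glia and the seam epidermis (WBGene00003321, chromosome IV 5562025 to 5562122, plus strand). Its peak at chromosome IV 5561122 to 5561366 had a score of 298 and rank 835 of 3824, with the summit at −774 bp from the precursor. The overlapping entry ranked 903 in replicate 1 (score 39.2, −log10 q 2.56) and 838 in replicate 2 (score 255, −log10 q 4.22). The nearest protein-coding start, that of ari-2, was 10117 bp away. The next was mir-2214, in an intron of B0361.11, with a score of 139.8 and its summit at −35 bp. It ranked 1044 in replicate 1 and 1716 in replicate 2. These were the loci behind the 2 peaks without a start that were supported in each replicate.

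The mir-51 family followed, and all of its peaks were of low to middle score. The family lies in 3 places. On the minus strand of chromosome IV, mir-51 had a peak of score 87.6 at −679 bp and mir-53 one of 45.6 at −176 bp. Elsewhere on chromosome IV, mir-52 was the only microRNA locus with 2 reproducible summits, at −701 bp (score 90.7) and −176 bp (score 81.1). On the X chromosome, mir-54, mir-55 and mir-56 lie in a row in an intron of F09A5.3, on the opposite strand to it, and shared 1 peak of score 55.9, with its summit at −316 bp from mir-54, −486 bp from mir-55 and −623 bp from mir-56. The family's 6 loci thus rested on 5 summits.

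In replicate 2 the entries over the strongest peak of each locus ranked 2357 for mir-51, 2442 for mir-52, 3025 for mir-53 and 2793 for the peak of mir-54 to mir-56. In replicate 1 an entry overlapped the peak of mir-51 alone (rank 1317, score 23.0, −log10 q 1.79), and the other 3 of these peaks had none. Entries over the second peak of mir-52 were not looked up. In the whole window of mir-52 the strongest replicate 2 entry ranked 2309 (score 71.5), and replicate 1 had no summit there. All 6 loci stayed bound with the strongest 3824 entries of replicate 2 alone, 1 with those of replicate 1 alone, and 0 with only peaks supported in each replicate. No protein-coding start stood within any of the 6 windows, and the nearest were 1318 bp (mir-53) to 10473 bp (mir-52) from the summit.

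The 4 bound loci with the seed AUGACAC, mir-229, mir-64 and mir-66 among them, shared a peak at chromosome III 2171989 to 2172324, with a score of 80.9. Its summit was at −295 bp from mir-229, the first of the row, at −691 bp from mir-64 and at −951 bp from mir-66. The peak had rank 2321 in replicate 2 (score 71.0) and no overlapping entry in replicate 1. It lies 20212 bp from the nearest annotated protein-coding start, that of the host gcn-1, which encodes a regulator of translation and had a separate promoter peak of score 3561.

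Bantam-related microRNAs of the mir-58 family, which act on body size, were bound at 2 of the 5 loci found by name. At mir-80 the score was 72.2, with the summit at −244 bp, and at mir-58a it was 65.7, at −388 bp. Entries over these peaks ranked 2771 and 2725 in replicate 2. In replicate 1 the peak of mir-80 had an entry of rank 9383 (score 9.48), and that of mir-58a had none. The other members, mir-58b, mir-81 and mir-82, were not bound, and the listed name mir-1834 was not matched. The seed of mir-80, GAGAUCA, was annotated at 6 loci, and the others (mir-2209a, mir-58b, mir-58c, mir-81 and mir-82) were not bound. The summit of mir-90 (score 56.5, −263 bp) lay in an intron of K01F9.2, on the same chromosome as that of mir-80.

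In the list of microRNAs studied in stress resistance and ageing, mir-239a and mir-239b were bound and mir-34, mir-71, mir-235 and mir-246 were not. The 2 bound loci point away from each other and shared 1 weak summit between them, of score 38.6, at −307 bp from mir-239a and −739 bp from mir-239b. Replicate 2 had an entry of rank 3596 there and replicate 1 had none. The same peak covered C34E11.20, a snoRNA gene.

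The remaining bound loci without a start were weak. They were mir-8209 (65.9), mir-1832a (65.8), mir-2218b (58.6), mir-2 (48.8) and mir-87 (47.8). The summits of mir-8209 and mir-1832a lay downstream of the precursor's 5' end, at 50 and 71 bp. The 3 others lay at −302, −231 and −213 bp. The summit of mir-1832a was also −636 bp from a start of its host rsp-8, beyond the promoter as defined here. None of these loci stayed bound with replicate 1 alone. The entries over the peak of mir-2 ranked 24043 in replicate 1 and 4143 in replicate 2, so it was not bound with replicate 2 alone either. The peaks of mir-2218b and mir-87 had no overlapping entry in replicate 1.

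Where a protein-coding start stood in the window, the strongest peaks lay in promoters of neighbouring genes or of genes that contain the microRNA. The highest was at mir-5549 on chromosome III (score 1604, rank 215), with the summit at −15 bp from the precursor and −153 bp from the start of rfc-4, which encodes a subunit of the clamp loader of DNA replication. That summit was also in the promoter of eef-1A.1, a translation elongation factor gene. At mir-354, which overlaps an exon of the ribosomal protein gene rps-20, the score was 1050 and the summit at −857 bp, in the promoters of rps-20 and ekl-4. At mir-2207 it was 1018, with the summit at −356 bp and at −135 bp from the nuclear pore gene npp-5.

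The next 3 in strength were mir-2213 (953, −350 bp from panl-2), mir-5595 (468, −274 bp from nurf-1) and mir-2218a (370.2, −224 bp from maea-1). The gene nurf-1, which encodes a nucleosome remodelling factor, contains mir-5595 in an intron, on the opposite strand. The summit of mir-2218a was also in the promoter of W09G3.8, which contains mir-2218a in an intron, on the opposite strand. All 6 of these peaks were in the top 20% of the list and supported in each replicate. In replicate 1 they ranked 106 (mir-5549), 263 (mir-354), 423 (mir-2207), 317 (mir-2213), 531 (mir-5595) and 707 (mir-2218a), and in replicate 2 they ranked 229, 365, 350, 388, 643 and 730 in the same order. The summit of mir-4934 (225) lay 44 bp inside its precursor and −317 bp from mtr-4, which encodes an RNA helicase of the exosome pathway. It too was supported in each replicate.

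Lower scores were found at mir-4936 (179, promoter of nduf-9), mir-8186-2 (116), mir-253 (53.3, promoter of F44E7.5), mir-4932 (39.0, promoters of smn-1 and klp-16) and mir-4929 (37.4, promoter of E01G4.3). The summit of mir-8186-2 lay −520 bp from gmeb-1 and so just outside the promoter as defined here. The pair mir-61 and mir-250, neighbours on chromosome V of which mir-61 acts in vulval cell fate, shared a summit of score 98.5 that was also −134 bp from the start of F55A11.4. Its entries ranked 2703 in replicate 1 (−log10 q 0.756) and 1900 in replicate 2. Which gene a shared peak serves was not tested.

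For the bound loci most of the window lay upstream of the precursor, so the rule itself favoured upstream summits. Of the 36 loci, 33 had their strongest summit upstream of the 5' end, and 18 of them had it between −350 and −100 bp. No expected share for that range was computed. The median over the 36 loci was −304 bp, and loci that share a peak are counted apart. The median was −312 bp for loci without a start in the window and −289 bp for those with one. For the 22 loci without a start, the distance from the summit to the nearest protein-coding start had a median of 3897 bp (range 636 to 20212), and it was over 2000 bp for 18 of them.

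**Figure D4:**
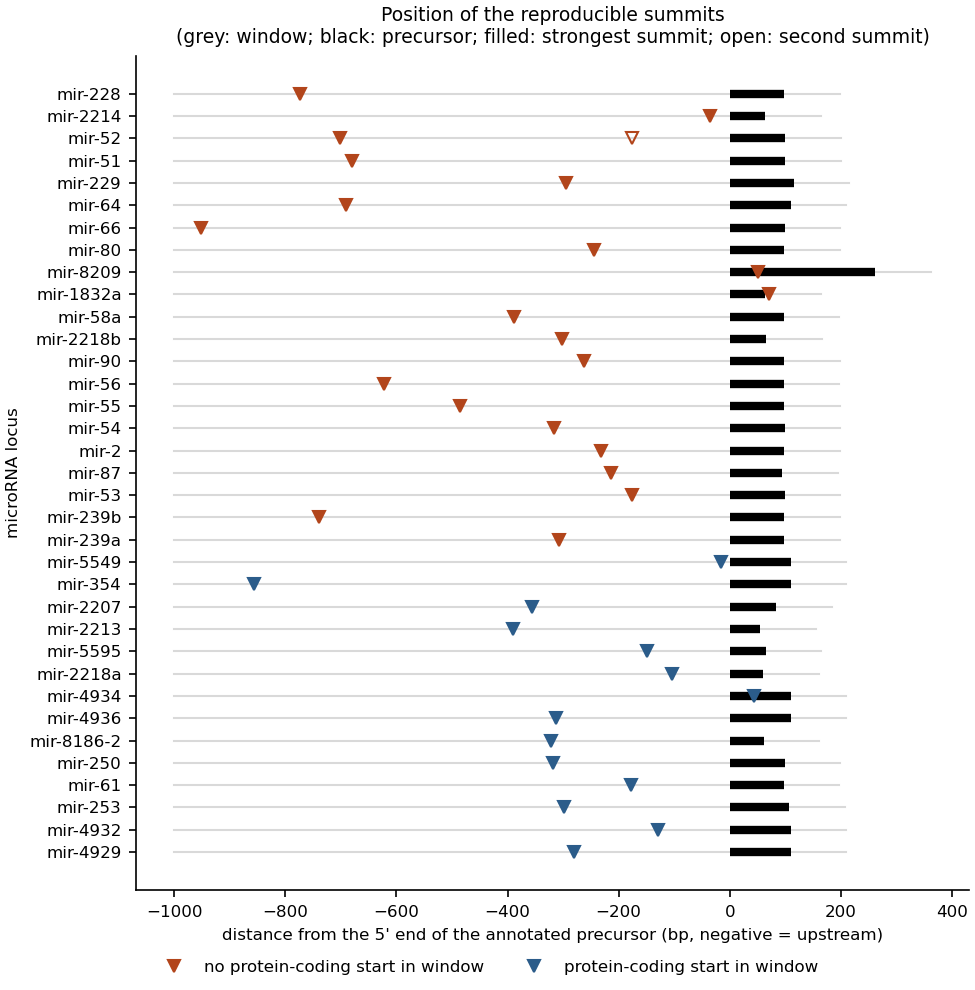
Position of the reproducible summits of 35 of the 36 bound loci relative to the 5' end of its annotated precursor, in bp, with the window in grey and the precursor in black. All of the strongest summits shown are upstream except the 3 of mir-8209, mir-1832a and mir-4934, and the loci that share a peak form slanted rows.

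Counted by length, microRNA windows held more reproducible summits than the genome at large, but not with replicate 1 alone beyond counting error. Their 276640 bp had 108 summits per Mb (exact Poisson interval 73.2 to 155), against 38.1 per Mb over the nuclear genome. Outside protein-coding promoters the windows had 18 summits, or 76.5 per Mb (45.3 to 121), against 17.5 per Mb for the genome outside promoters, a ratio of 4.37. Inside promoters the values were 291 per Mb (150.4 to 508) and 163 per Mb. The genome values include gene bodies. With replicate 1 alone the windows had 14 summits, or 50.6 per Mb (27.7 to 84.9), an interval that holds the genome value of 38.1 per Mb. Outside promoters they then had 4 summits, or 17 per Mb (4.63 to 43.5), against 23.1 per Mb for the genome, a ratio of 0.736. Inside promoters they had 243 per Mb (116 to 446), against 129 per Mb. With replicate 2 alone the ratios were 3.03 over all positions and 4.61 outside promoters. With only peaks supported in each replicate, 9 summits gave 32.5 per Mb (14.9 to 61.8), against 12 per Mb for the genome. Of these, 7 lay inside promoters, or 169.8 per Mb (68.3 to 349.9), against 71.3 per Mb. The 2 outside promoters gave 8.5 per Mb (1.03 to 30.7), against 2.13 per Mb. Inside and outside promoters alike, the interval held the genome value.

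The let-7 and lin-4 families, which time development, were not bound. No reproducible summit lay in the window of let-7, mir-48, mir-84, mir-241, mir-793, mir-794 or mir-795 of the let-7 family, or of lin-4 or mir-237 of the lin-4 family. The pooled list, which also holds entries below the lowest reproducible score of 35.7, had entries for mir-241 (score 21.1), mir-793 (15.7), lin-4 (10.3) and mir-237 (9.46), and none for the others. Replicate 2 had entries for mir-241 (score 19.2, rank 5450) and lin-4 (score 17.3, rank 5848), each with a −log10 q of 4.22, and none for other members. Replicate 1 had no summit in the windows of mir-241 and lin-4. The annotated span of let-7 is longer than a hairpin, so its 5' end and its window differ from those of the other loci. In whole larvae at an unknown depth, absence from these lists cannot tell a lack of binding from binding that was not detected.

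The 8 loci of the mir-35 family were not bound either. The loci mir-35 to mir-41 form a row on chromosome II, in an intron of Y62F5A.9 on the opposite strand, and no entry of the pooled list or of replicate 1 had its summit in their windows. Replicate 2 had entries of score 6.31 or 4.30 there, at ranks 12238 and 16885. The eighth, mir-42, stands in another cluster with mir-43 and mir-44 and had a pooled entry of score 32.2 at −283 bp, just under the lowest reproducible score. In replicate 2 the entry ranked 3281 (score 42.3). This entry was among the strongest that missed the reproducible list, after those of mir-47 (35.3) and mir-124 (34.5).

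In the list of microRNAs studied in particular tissues or cells, mir-228, mir-61 and mir-250 were bound. The others on the list, namely mir-1 of muscle, mir-124 of sensory neurons, lsy-6 of the taste neuron ASEL, mir-57 of the posterior body, and mir-273, were not. In the mir-44 family, which shares the seed of mir-61, the loci mir-44, mir-45 and mir-247 were not bound.

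**Figure D5:**
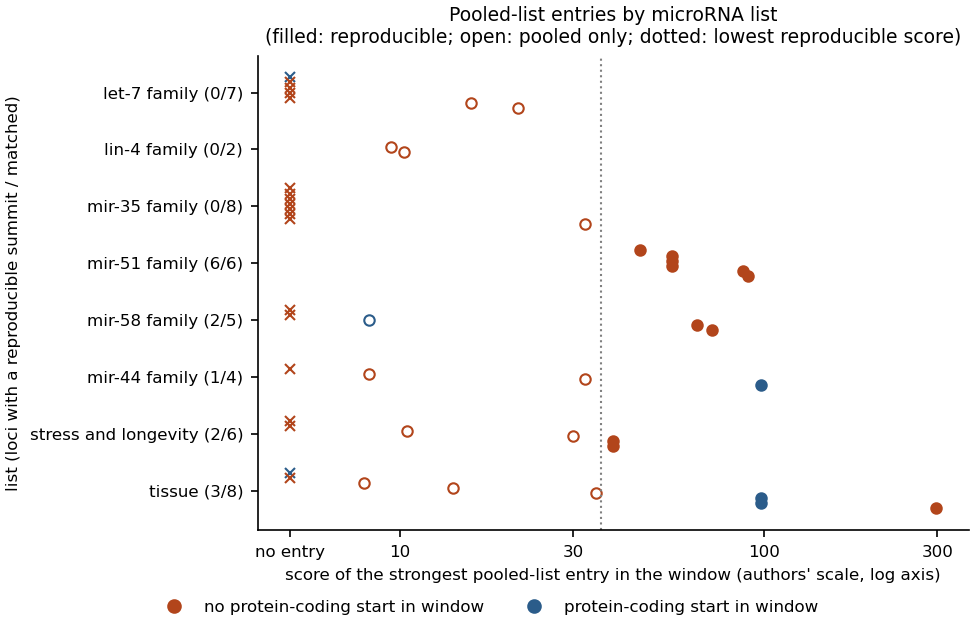
Score of the strongest pooled-list entry in the window of each listed microRNA, on a log axis, by list, with loci lacking an entry at far left. All 6 mir-51 family loci lie above the lowest reproducible score of 35.7 (dotted), and all let-7, lin-4 and mir-35 family loci lie below it or have no entry.

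By seed, 105 loci shared the seed of at least 1 mature arm with another locus, and 19 of these were bound (18.1%, Wilson interval 11.9% to 26.5%). Of the 155 loci with no shared seed, 17 were bound (11%, Wilson interval 6.96% to 16.9%). The intervals overlap, and neighbours that share a peak are counted apart. With replicate 1 alone the order turned round, with 3 of 105 loci of the first kind (2.86%, Wilson interval 0.976% to 8.07%) and 11 of 155 of the second (7.1%, Wilson interval 4.01% to 12.3%) bound. With only peaks supported in each replicate the counts were 0 and 9. In the reproducible list, 16 of the 19 bound loci of the first kind had no protein-coding start in the window. That was also so for 91 of all 105 loci of that kind. Of the second kind, 6 of the 17 bound loci had no such start, against 106 of all 155.

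Host genes were then considered, since a microRNA inside a gene can be made from its transcript. Of the 261 loci, 74 lay within a protein-coding gene on the same strand, 68 of them in introns, and 13 were bound (17.6%). A further 32 lay within a gene on the opposite strand, with 5 bound (15.6%), and 155 lay outside protein-coding genes, with 18 bound (11.6%). The Wilson intervals were 10.6% to 27.8%, 6.86% to 31.8% and 7.47% to 17.6% in that order. Among loci with no protein-coding start in the window, 10 of 50 on the host's strand (20%), 3 of 24 on the opposite strand (12.5%) and 9 of 124 outside genes (7.26%) were bound. Of the 13 bound loci on the host's strand, 4 share the peak in gcn-1. With replicate 1 alone the order was not kept, with 2 of 74 loci on the host's strand (2.7%), 2 of 32 on the opposite strand (6.25%) and 10 of 155 outside genes (6.45%) bound. Among loci with no start in the window these counts were 1 of 50 (2%), 0 of 24 and 2 of 124 (1.61%).

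A host can also be bound at its own promoter, which may lie near the microRNA or far from it. The 74 loci had 67 host genes, of which 16 (23.9%, Wilson interval 15.3% to 35.3%) had a promoter summit, against 14.8% of all protein-coding genes (2947 of 19973). With replicate 1 alone the shares were 22.4% of host genes (Wilson interval 14.1% to 33.7%) and 11.8% of all protein-coding genes. With only peaks supported in each replicate, 8 of the 67 host genes had one (11.9%, Wilson interval 6.18% to 21.8%). The share of all protein-coding genes was then 6.93%, inside that interval. The 16 hosts with a reproducible promoter summit held 20 microRNA loci. At mir-354, mir-253 and mir-4929 the host's promoter summit was the one already counted in the microRNA window. Of the 20 loci, 10 had no summit in their own window. Among these 10 was mir-1828, in the gene pash-1, which encodes a microRNA processing protein and had a promoter peak of score 3473. Another was mir-71, in ppfr-1, a protein phosphatase subunit gene with a promoter peak of score 143, which also hosts mir-2.

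DNA cores were sought within 50 bp of each of the 30 summits. The E2F-like core was TTCCCGC or one of its variants, of which the first was TTGGCGC while the next was TTCGCGC, with TTGCCGC as the last. The CHR-like core, the kind bound by the DREAM subunit LIN-54, was TTTGAA or else TTCGAA. Each was sought on both strands, and an E2F-like core may overlap a CHR-like one. An E2F-like core stood at 1 of the 18 microRNA summits outside promoters (5.56%, Wilson interval 0.988% to 25.8%), against 15.9% of all 1503 summits outside promoters. It stood at 3 of the 12 inside promoters (25%, Wilson interval 8.89% to 53.2%). Over all reproducible summits, inside promoters or not, the share was 16.8%, which that interval holds. Over windows of 101 bp across the nuclear genome it was 3.27%. A CHR-like core stood at 7 of the 30 microRNA summits (23.3%), against 34.4% of all summits and 33.5% of genome windows. With so few summits the intervals are wide, and a match describes letters, not a site in use.

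The summit outside promoters with an E2F-like core was that of mir-228. The stretch is shown with the core in capitals, on the plus strand at chrIV:5561225-5561253, and its centre was at −12 bp from the summit. The same summit also had 2 CHR-like cores within 50 bp.
mir-228 E2F-like core: ttaaatttgaaTTCCCGCgtaaaaccatt

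For comparison, the stretch at mir-4934 lies on the plus strand at chrIV:9825352-9825380, in the promoter of mtr-4, and that of the pair mir-61 and mir-250, whose core reads on the minus strand, at chrV:11770352-11770380.
mir-4934 E2F-like core: gcactgcttttTTGCCGCggaattcgaaa
mir-61 and mir-250 E2F-like core: cactttggtgcGCGCGAAaagttgaagtt
At mir-239a and mir-239b a CHR-like core lay at the summit itself, at chrX:11792124-11792151 on the plus strand.
mir-239a and mir-239b CHR-like core: agtcgaaagatTTCGAAatgacaaaatt

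Some loci missed the window narrowly. Reproducible summits lay up to 200 bp beyond it at 6 further loci, all upstream, at −1161 to −1006 bp. They were mir-8190, mir-8205, mir-4816, mir-238, mir-392 and mir-353, and 4 of these summits were in protein-coding promoters. Of the 261 loci, 164 had an entry with its summit in the window in at least 1 of the 4 lists at any score, and 97 had none. Pooled-list entries at any score stood in 36.8% of microRNA windows and in 40.7% of the 5' stretches of protein-coding genes. In replicate 1 the shares were 31.4% of microRNA windows and 39.6% of protein-coding stretches. In replicate 2 they were 46% and 38.8% in that order.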

How the data were processed

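Peak lists of 2 EFL-1::GFP libraries (1 group) were used. Per the text files the authors deposited, each replicate list and the pooled list were made from alignments with a control, and the reproducible list was derived from these lists by the irreproducible discovery rate. No aligner, caller or threshold is given in the sources used here. The score in column 7 and the summit offset (other value, column 10) are the authors' deposited values, as is the −log10 of a q-value in column 9. Scores ranked peaks within a list only. The lists held 3824 (reproducible), 28550 (pooled), 30000 (replicate 1) and 28686 (replicate 2) entries, and depth was unknown. Lists in the ce10 build were not used.

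Loci and starts came from Ensembl release 115, and sequences and mature microRNAs from RefSeq, both of WBcel235. One locus listed by accession took its RefSeq symbol (let-7). Summits were counted with Python 3.11.15 and intervals computed with SciPy 1.17.1, after a check of the counting on simulated peaks. Comparisons carry no p-value. The members, family lists and cores were chosen with earlier results of these data known. Named were the 30 bound loci with the highest score, family list members and the 5 strongest pooled-only entries. The loci mir-87, mir-4932 and mir-4929, those just beyond the window and those named for a host's promoter, a shared seed or a neighbour were named after their values were seen. The values of 1 bound locus are not reported here by name.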

Additional observations from a re-analysis of the deposited data

How the results depend on the processing

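No paired analysis was possible because there is 1 group. The numbers of bound loci, of summits and of bound loci without a protein-coding start were 36, 30 and 22. They were 96, 108 and 70 with the pooled list at any score, 11, 11 and 2 with the stronger 50% of reproducible peaks, and 9, 9 and 2 with only peaks supported in each replicate. With 1 replicate left out they ranged from 14 to 40, 14 to 32 and 3 to 26, the low values being those without replicate 2. A window of 2000 bp gave 56 loci, 53 summits and 28 loci without a start, and one of 500 bp gave 28, 26 and 18. The share of protein-coding genes with a summit was 13.8% with 500 bp in place of 16.6%. Overlap of the peak in place of the summit gave 42 loci, and each gene identifier gave 36. Shares of microRNA loci by class from replicate 1 alone, and densities from each replicate alone, were added after seeing the data and stand beside those results. Shares by class from replicate 2 alone are given for only some of them. Shares of the other non-coding gene classes are from the reproducible list only. Also chosen after seeing the data, same-strand clusters within 2000 bp gave 29 of 222 units, and 23 loci had no summit in a protein-coding promoter. Under each of 10 of these settings, the added ones aside, 7 of the 36 loci stayed bound. The cause of these changes was not tested, beyond the shorter lists and longer windows themselves.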

Other observations

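Some peaks at microRNA loci also covered other genes that make no protein. The stronger of the 2 peaks of mir-52 overlapped 3 ncRNA genes, with both strands represented. The shared peak of mir-54, mir-55 and mir-56 overlapped the ncRNA gene F09A5.11, whose 5' end lay at −177 bp from mir-54 on the same strand. The peaks of mir-2213, mir-2214 and mir-253 overlapped the ncRNA genes F31E3.9, B0361.13 and F44E7.13. Median GC content within 50 bp of the summit was 52.0% for the 18 microRNA summits outside promoters and 48.5% for the 12 inside them, against 45.5% over all reproducible summits.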
